A study of Mus musculus with 6 samples.

Results

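Fatty acid oxidation and the tricarboxylic acid (TCA) cycle were followed through 43 genes, 20 of fatty acid oxidation and 23 of pyruvate entry and the TCA cycle. The genes were taken as named lists and matched by symbol to the expression table. All 43 are among the 14408 genes in the table. Mitochondria import long-chain fatty acids through the carnitine shuttle and shorten them by repeated rounds of dehydrogenation, hydration, a further dehydrogenation and thiolysis, each round releasing acetyl-CoA. The TCA cycle oxidises acetyl-CoA from fatty acids or from pyruvate and passes the electrons to the respiratory chain, while pyruvate carboxylase replenishes the cycle with oxaloacetate. The adult heart muscle is known to rely mainly on fatty acids for its ATP.

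The study examined what L-proline does to the heart of mice with a form of heart failure with preserved ejection fraction, an impairment of filling rather than of pumping. The animals were males of the C57BL/6J strain that began at an age of 8 weeks. All of them received a high-fat diet and the nitric oxide synthase inhibitor L-NAME at 0.5 g/L in the drinking water for 8 to 12 weeks. Afterwards, 1 group was given PBS and the other L-proline at 300 mg/kg/day by intraperitoneal injection for 4 to 8 weeks. The labels do not say which durations within these ranges each library had, or whether they were matched between the groups. PolyA RNA from left ventricle was sequenced, with 3 libraries per group and no group without the diet and L-NAME. The labels do not say that the 3 libraries of a group are separate animals, so each p-value reflects only how far these particular libraries scatter, and that scatter may be technical.

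Values are FPKM, fragments scaled to the length of the gene model and to the library's total, and the totals they imply ran from 34990473 to 37498030 fragments per library. Fold changes are L-proline minus PBS on the scale of log2(FPKM + 1), ± standard error, from limma over the 10500 genes with a mean of at least 1 FPKM, and a gene was said to rise or fall at a Benjamini-Hochberg adjusted p under 0.05. Of these genes 788 (7.5%) were higher and 1268 (12.1%) lower, with a median of -0.06. Cardiomyocyte markers went against the tissue label. Of 13 such markers 6 were listed, and only Tnnt2 was above 1 FPKM. Myh7, Myl2, Tnni3, Ttn and Ryr2 were at most 0.212 FPKM in any library, while the summed level of 7 listed fibroblast markers was 4835 to 5034 FPKM in PBS and 5119 to 5421 in L-proline. The fibroblast markers went both ways: Col1a1, Col1a2 and Col3a1 rose (0.33 to 0.57), while Vim (-0.30 ± 0.06, adjusted p = 0.0122), the largest part of the PBS sum, and Pdgfra (-0.34 ± 0.08, adjusted p = 0.0215) fell. Summed, the cardiomyocyte markers stood at 31.6 to 33.0 FPKM in PBS and 13.8 to 16.4 in L-proline, the 4 listed mesothelial markers at 51.2 to 52.6 and 26.3 to 27.5, and the 3 listed adipocyte markers at 10.3 to 11.5 and 6.67 to 7.62. The cardiomyocyte sum was nearly all Tnnt2, which fell (-1.09 ± 0.09, adjusted p = 0.000326), while the other listed cardiomyocyte markers were too low to be tested. Of the mesothelial markers Msln (-0.88 ± 0.07, adjusted p = 0.000379) and Krt19 (-0.93 ± 0.09, adjusted p = 0.000541) fell without overlap. Wt1 and Lrrn4 were too low to be tested. Of the adipocyte markers Fabp4 fell (-0.98 ± 0.12, adjusted p = 0.00167), while Pparg was at -0.04 ± 0.09. Macrophage markers (5 listed) summed to 19.7 to 22.2 and 21.8 to 25.4 FPKM, mostly Cd14, and of them Cd68 alone passed, higher by 0.57 ± 0.11 (adjusted p = 0.0101) and without overlap. Pericyte and smooth muscle markers (8 listed) summed to 944 to 1059 and 852 to 1050 FPKM, mostly Acta2, and the 5 listed endothelial markers to at most 0.655 FPKM. The part of these markers in the results on the 43 genes was not tested. In bulk RNA, fewer cells of a type and less RNA per cell cannot be told apart.

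Of all tested genes 19.6% passed, 7.5% higher and 12.1% lower. Across fatty acid oxidation, 6 of 20 genes fell in L-proline (30%) and none rose. Without PBS 1, 2 or 3 the falls numbered 3, 2 and 2. Those of all tested genes, 1268 as reported, then numbered 584, 843 and 508. The 6 genes that fell with all libraries were Ucp2, Decr1, Hadh, Acaa2, Cpt1a and Acadl. They cover the carnitine shuttle, the first and the last 2 reactions of the oxidation round, an auxiliary enzyme and an inner membrane carrier. At an unadjusted p under 0.05, limma gave 3 higher genes (Mlycd, Acadvl and Ech1), and voom gave 0 after adjustment. Of the 20 fold changes 16 were below 0, as were 59.4% of all tested genes. The median was -0.12 (quartiles -0.24 and -0.03). In the TCA cycle and pyruvate entry, Ogdh, Idh3g and Sdhd fell (13% of 23) and Pcx rose, with 17 fold changes below 0 and a median of -0.07 (quartiles -0.15 and 0.00), next to the -0.06 of all genes. Without PBS 1, 2 or 3 the TCA falls numbered 1, 1 and 0. The L-proline and PBS libraries did not overlap for 12 fatty acid oxidation genes, 10 lower and 2 higher (60%), and for 12 TCA genes, 9 lower and 3 higher (52.2%), where 40.1% of all tested genes did not overlap. By direction, 24.0% of all tested genes were lower and 16.0% higher without overlap.

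**Figure D1:**
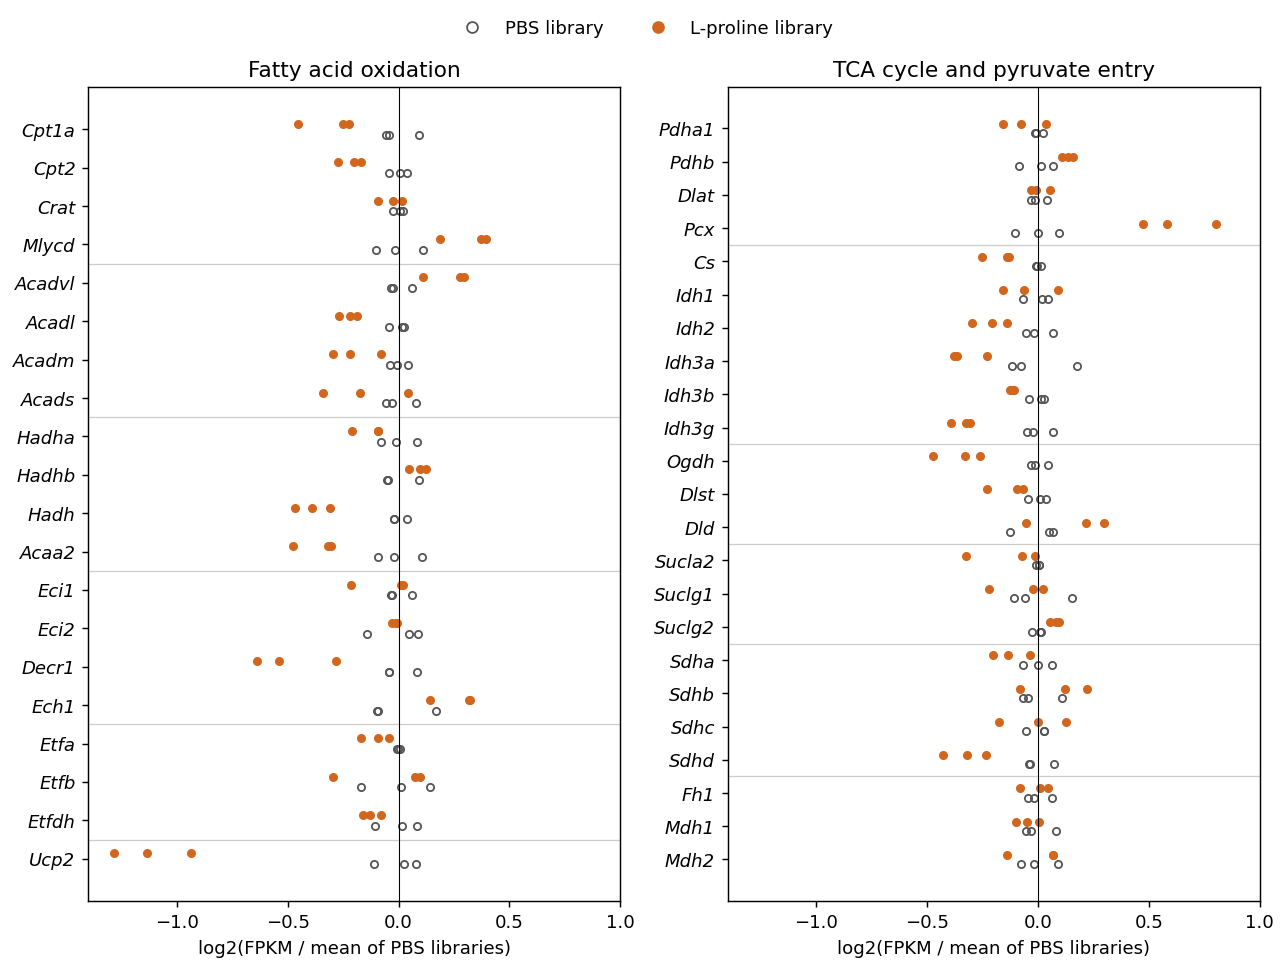
Each of the 43 genes in each library, as log2 of its FPKM over the mean of the 3 PBS libraries (x axis), with fatty acid oxidation on the left and pyruvate entry and the TCA cycle on the right. Open circles are PBS libraries, filled circles L-proline libraries, and grey lines separate steps; Ucp2 lies farthest to the left and Pcx farthest to the right.

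The promoter windows of 4 genes are shown because they belong to the gene with the largest fall (Ucp2), the gene that rose (Pcx), a subunit that fell and holds the only match among the windows to the searched estrogen-related receptor element (Sdhd), and a gene whose window overlaps that of its partner subunit (Hadha). Each window runs 250 bases before to 50 bases after the transcription start in RefSeq's annotation of GRCm38.p6, and 38 of the 43 genes had at least 1 window, 45 windows in all since 3 genes have several starts. Capitals mark matches to the words searched on both strands. The Ucp2 window is chr7:100493108-100493407 on the plus strand, Pcx chr19:4510222-4510521 on the plus strand (1 of its alternative starts), Sdhd chr9:50603800-50604099 on the minus strand and Hadha chr5:30154931-30155230 on the minus strand.
Ucp2: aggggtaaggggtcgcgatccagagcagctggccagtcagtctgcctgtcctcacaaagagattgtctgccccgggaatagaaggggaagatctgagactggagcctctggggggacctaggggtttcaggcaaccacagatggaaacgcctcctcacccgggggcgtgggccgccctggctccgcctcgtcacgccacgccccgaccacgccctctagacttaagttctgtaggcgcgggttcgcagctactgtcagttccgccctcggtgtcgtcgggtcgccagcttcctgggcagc
Pcx: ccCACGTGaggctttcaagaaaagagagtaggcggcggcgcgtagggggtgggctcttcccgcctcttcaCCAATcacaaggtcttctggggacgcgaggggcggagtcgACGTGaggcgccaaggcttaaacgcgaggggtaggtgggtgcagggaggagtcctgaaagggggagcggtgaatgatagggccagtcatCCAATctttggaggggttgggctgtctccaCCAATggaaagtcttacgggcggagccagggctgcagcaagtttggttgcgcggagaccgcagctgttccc
Sdhd: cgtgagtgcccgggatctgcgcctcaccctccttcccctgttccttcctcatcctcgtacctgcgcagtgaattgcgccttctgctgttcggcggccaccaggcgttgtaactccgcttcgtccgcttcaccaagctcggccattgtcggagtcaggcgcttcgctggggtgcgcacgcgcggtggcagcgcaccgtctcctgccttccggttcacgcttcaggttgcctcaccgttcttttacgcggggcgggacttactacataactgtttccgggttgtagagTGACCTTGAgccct
Hadha: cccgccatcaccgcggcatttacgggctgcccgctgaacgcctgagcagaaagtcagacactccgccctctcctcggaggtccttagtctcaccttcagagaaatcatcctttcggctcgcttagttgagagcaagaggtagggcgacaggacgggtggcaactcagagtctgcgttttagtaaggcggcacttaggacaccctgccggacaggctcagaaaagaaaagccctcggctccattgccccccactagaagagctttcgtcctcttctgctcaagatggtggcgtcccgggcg

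A total of 6 words were searched, and a gene was counted where any of its windows held the word. The hexamer of nuclear receptors, AGGTCA, was found for 3 of 17 fatty acid oxidation and 7 of 21 TCA genes, against 18.1% of the 27025 genes with a window. For Pcx it was only in the window of the start not printed, and for Ogdh in 1 of 6 windows. The longer estrogen-related receptor element TCAAGGTCA, which contains that hexamer, was found for Sdhd alone (0.466% of all genes), as its reverse complement. The NRF1 element GCGCATGCG was found for Acadm, Etfdh and Ogdh (1.95% of all genes). The ATF4 element TGATGNAAT was found for none of the 38 (1.08% of all genes). The core of the HIF element, ACGTG, was found for 1 fatty acid oxidation gene, Acadvl, and for 6 TCA genes, Pcx, Idh3g, Ogdh, Mdh1, Pdhb and Sdha (21.8% of all genes). The NF-Y box, CCAAT, was found for 7 of 17 fatty acid oxidation and 13 of 21 TCA genes (41.1% of all genes). The printed Pcx window holds the HIF core and the NF-Y box, and the Ucp2 and Hadha windows hold none of the 6 words. The Hadha and Hadhb genes start 273 bases apart in opposite directions, so that their windows share the 228 bases of chr5:30155003-30155230.

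The carnitine shuttle moves long-chain acyl groups across the mitochondrial membranes. Cpt1a, its outer membrane enzyme and the step that malonyl-CoA inhibits, was 49.0, 54.4 and 49.5 FPKM in PBS and 37.2, 43.7 and 42.8 in L-proline. Every L-proline library lay below every PBS library, and Cpt1a fell (-0.30 ± 0.08, adjusted p = 0.0422). The call was marginal: the adjusted p was 0.0988, 0.121 and 0.119 without PBS 1, 2 and 3, 0.0575, 0.0562 and 0.0577 without L-proline 1, 2 and 3, just over the threshold with no expression filter and 0.0860 with median-of-ratios scaling. Cpt1b, the muscle form, is not listed in the table used here. Cpt2, the inner membrane partner, was 13.4, 13.1 and 12.6 FPKM in PBS and 10.8, 11.3 and 11.6 in L-proline. Its groups did not overlap, but its fold change of -0.20 ± 0.07 did not pass (adjusted p = 0.0914). The ratio of Cpt1a to Cpt2 within a library, 3.66 to 4.16 in PBS and 3.45 to 3.86 in L-proline, overlapped between groups.

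Mlycd and Crat act beside the shuttle. Mlycd, malonyl-CoA decarboxylase, removes the inhibitor of Cpt1a, and had the lowest mean over the 6 libraries of the 43 genes. It was 3.00, 2.83 and 3.27 FPKM in PBS and 3.45, 3.93 and 3.98 in L-proline. All L-proline libraries were above all PBS libraries, by 0.25 ± 0.09, which did not pass (adjusted p = 0.0933). Crat, which makes acetylcarnitine, averaged 8.04 ± 0.128 FPKM (SD, n = 3) in PBS and 7.87 ± 0.296 in L-proline, with overlapping groups.

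The 4 acyl-CoA dehydrogenases open the oxidation round, each on its own range of chain lengths. Acadl, for long chains, was 64.8, 67.6 and 68.0 FPKM in PBS and 57.4, 58.6 and 55.4 in L-proline. The groups were apart and Acadl fell (-0.22 ± 0.06, adjusted p = 0.0430). This call was lost without PBS 1, 2 or 3 (adjusted p = 0.109, 0.117 and 0.181), without L-proline 2 or 3 (0.0696 and 0.0856), with median-of-ratios scaling (0.101) and with voom on recovered fragments (0.0547). Acadm, for medium chains, was 78.7, 80.5 and 83.3 FPKM in PBS and 76.4, 69.4 and 65.9 in L-proline. Its groups were apart by a small gap and the fold change of -0.20 ± 0.07 did not pass (adjusted p = 0.101; 0.0324 without L-proline 1). Acadvl, for very long chains, lay on the other side, at 71.6, 76.1 and 71.2 FPKM in PBS and 78.7, 88.3 and 89.6 in L-proline. All its L-proline libraries were above its PBS libraries, with 0.22 ± 0.07 and an adjusted p of 0.0682, which passed at 0.0218 without L-proline 1 and at 0.0436 with median-of-ratios scaling. Acads, for short chains, was 29.3 ± 1.47 and 26.4 ± 3.51 FPKM, with overlapping groups. The 4 dehydrogenases thus gave 1 fall, and 2 genes whose groups were apart in opposite directions without passing.

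The remaining reactions of the round are carried out by the trifunctional protein, whose subunits are Hadha and Hadhb, and by the matrix enzymes Hadh and Acaa2. Hadh, which oxidises medium- and short-chain hydroxyacyl-CoA, was 54.8, 57.0 and 54.8 FPKM in PBS and 42.4, 40.2 and 44.8 in L-proline. The groups were well apart, and Hadh fell by 23.5% (-0.38 ± 0.07, adjusted p = 0.00776), a call that held under all 16 alternatives (adjusted p 0.000473 to 0.0440). Acaa2, the thiolase that closes the round, was 54.0, 61.8 and 56.8 FPKM in PBS and 41.3, 46.1 and 46.6 in L-proline. Its groups did not overlap and it fell (-0.36 ± 0.08, adjusted p = 0.0194), with 0.0646 without PBS 2 and 0.0791 without PBS 3.

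Hadha and Hadhb form 1 protein complex and start from the overlapping windows described with the sequences. Hadha was 63.1, 67.5 and 60.3 FPKM in PBS and 55.1, 59.6 and 59.7 in L-proline. Its groups did not overlap, and its -0.13 ± 0.07 did not pass (adjusted p = 0.242). Hadhb was 9.81, 9.79 and 10.8 FPKM in PBS and 10.8, 11.1 and 10.5 in L-proline, with overlapping groups. The Hadha to Hadhb ratio within a library was 6.43, 6.89 and 5.57 in PBS and 5.08, 5.39 and 5.69 in L-proline. The groups overlapped in this ratio (exact two-sided permutation p = 0.2).

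Auxiliary enzymes prepare the double bonds of unsaturated fatty acids for the round, and of these 4 genes Decr1 passed. Decr1, the mitochondrial dienoyl-CoA reductase, was 10.8, 11.8 and 10.8 FPKM in PBS and 7.66, 9.14 and 7.13 in L-proline. The groups did not overlap and Decr1 fell by 28.2% (-0.44 ± 0.10, adjusted p = 0.0204). The adjusted p was 0.0632, 0.0649 and 0.0718 without PBS 1, 2 and 3. Ech1, which moves a double bond in dienoyl-CoA, was 59.6, 71.7 and 59.8 FPKM in PBS and 70.2, 79.6 and 79.4 in L-proline. PBS 2 overlapped the L-proline libraries, and 0.26 ± 0.09 did not pass (adjusted p = 0.0882; 0.0422 without PBS 2 and 0.0392 without L-proline 1). The isomerases Eci1 and Eci2 overlapped between groups, at 24.0 ± 0.900 and 23.1 ± 2.07 FPKM for Eci1 and 19.4 ± 1.60 and 19.2 ± 0.154 for Eci2.

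The electron transfer flavoprotein and its dehydrogenase carry electrons from the acyl-CoA dehydrogenases to the respiratory chain, and none of their 3 genes passed. Etfa was 13.1, 13.2 and 13.1 FPKM in PBS and 12.8, 12.3 and 11.7 in L-proline, without overlap (-0.09 ± 0.07, adjusted p = 0.385). Etfb, the other subunit, was 57.5 to 71.5 FPKM in PBS and 52.7 to 69.1 in L-proline, and Etfdh was 28.9 ± 1.88 and 26.6 ± 0.758. Both overlapped between groups.

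Ucp2, a mitochondrial inner membrane carrier of the uncoupling protein family, had the largest change of the 43 genes. It was 5.25, 4.79 and 5.46 FPKM in PBS and 2.36, 2.70 and 2.12 in L-proline. Every L-proline library lay well below every PBS library, and Ucp2 fell by 53.7% (-0.86 ± 0.10, adjusted p = 0.00121). It passed in all 15 alternatives that tested it. Its level was low, with 157 to 403 fragments per library, and adding 1 to the FPKM shrinks its fold change.

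**Figure D2:**
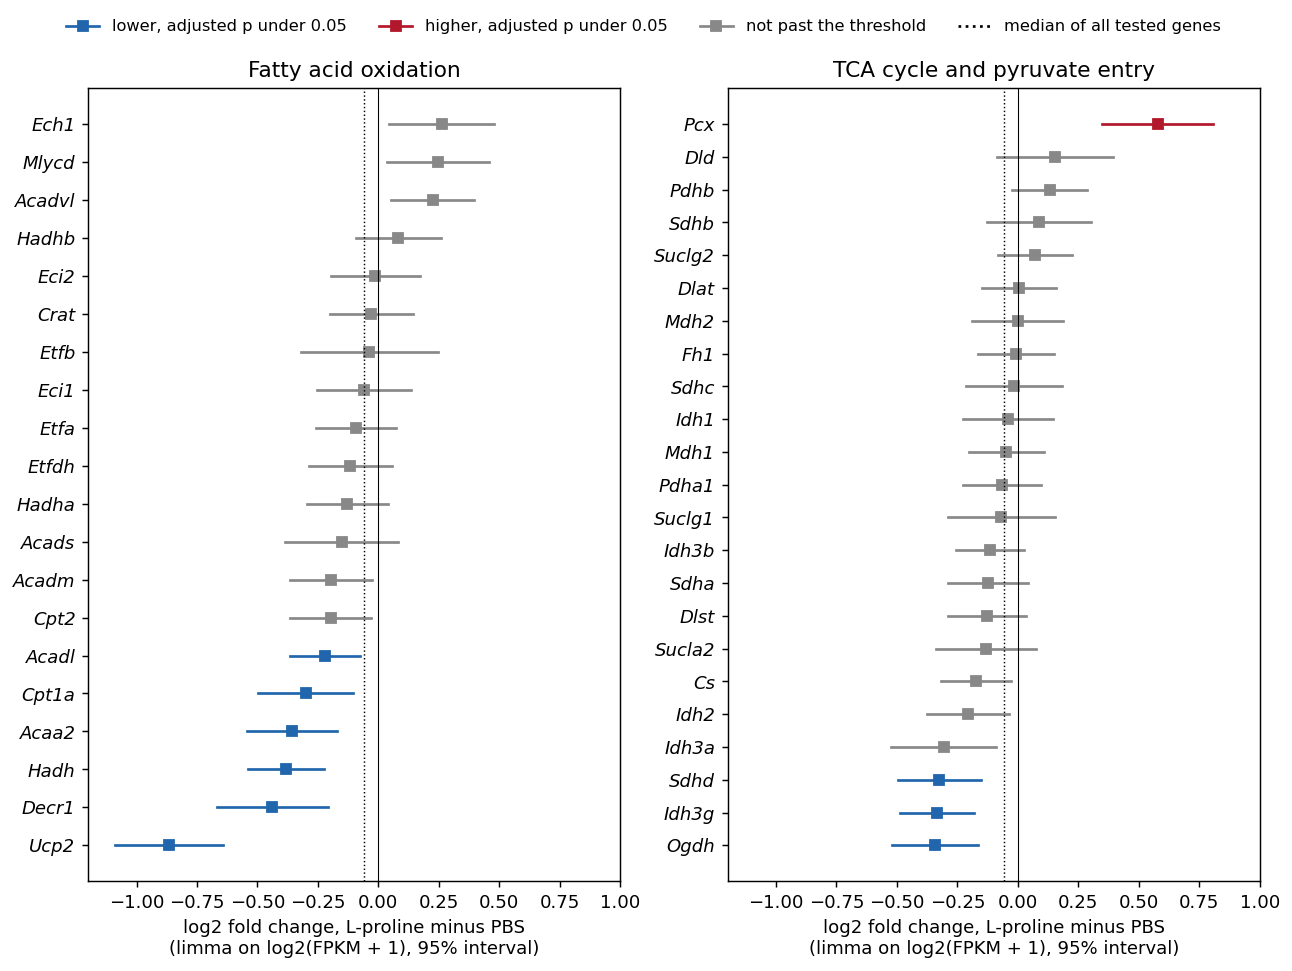
Log2 fold change of each gene (square) with its 95% interval (line) from limma on log2(FPKM + 1), sorted within each pathway, with the median of all tested genes dotted. Blue genes fell, red rose and grey did not pass; the 6 falls in fatty acid oxidation range from -0.22 (Acadl) to -0.86 (Ucp2), and Pcx alone is red.

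At the entry of pyruvate, the pyruvate dehydrogenase complex and pyruvate carboxylase compete for the same substrate. Pcx, pyruvate carboxylase, was 11.6, 10.8 and 10.1 FPKM in PBS and 16.2, 15.0 and 18.9 in L-proline. The groups were well apart, and Pcx rose by 54.2% (0.58 ± 0.10, adjusted p = 0.00674), the only rise among the 43 genes. The call held under all 16 alternatives. Of the pyruvate dehydrogenase genes, Pdhb, a subunit of the first component, was 46.5, 48.2 and 43.4 FPKM in PBS and 49.6, 51.4 and 50.5 in L-proline. The groups did not overlap, and 0.13 ± 0.07 did not pass (adjusted p = 0.204). Its partner Pdha1 was 102 ± 1.35 and 97.2 ± 6.68 FPKM and the acetyltransferase Dlat 23.7 ± 0.616 and 23.8 ± 0.732, both with overlapping groups. The 95% interval of the Dlat fold change was -0.15 to 0.16.

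Citrate synthase and the isocitrate dehydrogenases gave 6 fold changes below 0, from -0.33 (Idh3g) to -0.04 (Idh1), of which 1 passed. Of all tested genes 59.4% were below 0 and 12.1% fell. Idh3g, a regulatory subunit of the NAD-dependent isocitrate dehydrogenase, was 59.4, 64.6 and 60.7 FPKM in PBS and 46.9, 49.8 and 49.2 in L-proline. The groups were apart and Idh3g fell by 21.0% (-0.33 ± 0.07, adjusted p = 0.0115; 0.0585 without PBS 3). Idh3a, the catalytic subunit of that enzyme, was 25.3, 30.2 and 24.7 FPKM in PBS and 20.8, 22.8 and 20.6 in L-proline. Its groups did not overlap, and -0.31 ± 0.09 narrowly missed (adjusted p = 0.0556). Idh3b, a further subunit, was 53.3, 55.9 and 55.5 FPKM in PBS and 50.4, 51.0 and 50.2 in L-proline, also without overlap (-0.12 ± 0.06, adjusted p = 0.210). The ratio of Idh3a to Idh3g was 0.406 to 0.468 in PBS and 0.418 to 0.457 in L-proline, so that the L-proline range lay within the PBS range.

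Cs, which condenses acetyl-CoA with oxaloacetate, was 160.1, 162 and 161 FPKM in PBS and 135, 146 and 147 in L-proline. No library overlapped, and -0.17 ± 0.06 did not pass (adjusted p = 0.0884; 0.0149 with quantile normalization and 0.0210 with libraries scaled to equal sums). Idh2, the mitochondrial NADP-dependent enzyme, was 28.5, 30.2 and 27.7 FPKM in PBS and 23.4, 24.9 and 26.2 in L-proline. It too was without overlap, at -0.21 ± 0.07 and an adjusted p of 0.0886 (0.0288 with equal sums). Idh1, its cytosolic counterpart, was 95.6 ± 3.89 and 93.1 ± 8.17 FPKM with overlapping groups.

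In the oxoglutarate dehydrogenase complex the first component fell. Ogdh was 31.5, 33.2 and 31.9 FPKM in PBS and 23.2, 25.7 and 26.9 in L-proline. The groups were apart and Ogdh fell by 21.6% (-0.34 ± 0.08, adjusted p = 0.0189), with 0.0642, 0.0647 and 0.0819 without PBS 1, 2 and 3. Dlst, the succinyltransferase core, was 79.3, 83.9 and 82.3 FPKM in PBS and 69.8, 78.2 and 76.6 in L-proline. Its groups were apart by a small gap and -0.13 ± 0.07 did not pass (adjusted p = 0.224). Dld, the dihydrolipoamide dehydrogenase that this complex shares with pyruvate dehydrogenase, was 53.4 ± 3.93 and 59.7 ± 7.39 FPKM, with overlap and a fold change of 0.15 ± 0.10.

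Succinyl-CoA ligase joins Suclg1 to either Sucla2, for ADP, or Suclg2, for GDP, and none of the 3 passed. Sucla2 was 33.0, 32.8 and 33.1 FPKM in PBS and 32.7, 31.3 and 26.3 in L-proline (-0.13 ± 0.09, adjusted p = 0.325). Suclg2 was 16.3, 16.4 and 15.9 FPKM in PBS and 17.3, 17.1 and 16.8 in L-proline (0.07 ± 0.07, adjusted p = 0.466). Both were without overlap, in opposite directions. The Suclg2 to Sucla2 ratio was 0.494, 0.500 and 0.482 in PBS and 0.530, 0.547 and 0.640 in L-proline, apart by 0.21 on the log2 scale (exact two-sided permutation p = 0.1, the smallest that 3 against 3 allows; 0.4 after adjustment over 10 ratios). Suclg1 was 59.5 ± 5.87 and 56.7 ± 5.00 FPKM, with overlap.

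Succinate dehydrogenase, complex II of the respiratory chain, has 2 catalytic subunits, Sdha and Sdhb, and 2 membrane anchors, Sdhc and Sdhd. Sdhd was 73.9, 79.9 and 74.1 FPKM in PBS and 56.4, 64.5 and 60.7 in L-proline. The groups did not overlap and Sdhd fell by 20.3% (-0.32 ± 0.07, adjusted p = 0.0207), with 0.0642, 0.0694 and 0.0758 without PBS 1, 2 and 3. The other anchor, Sdhc, was 113 ± 3.69 and 112 ± 11.6 FPKM, Sdha 91.8 ± 4.11 and 84.2 ± 4.90, and Sdhb 62.5 ± 4.21 and 66.7 ± 6.92, all with overlap. Within a library, the Sdha to Sdhb ratio was 1.47, 1.42 and 1.52 in PBS and 1.35, 1.32 and 1.15 in L-proline. The 2 groups were apart in this ratio by -0.21 on the log2 scale (exact two-sided permutation p = 0.1, adjusted 0.4). The other 8 of 10 ratios overlapped between groups.

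Fumarase and malate dehydrogenase, the last steps of the cycle, overlapped between groups throughout. Fh1 was 62.9 ± 2.44 and 62.6 ± 2.86 FPKM. The cytosolic Mdh1 was 101 ± 5.23 and 97.5 ± 3.47 FPKM, and the mitochondrial Mdh2, with the highest mean of the 43 genes, was 187 ± 11.2 and 187 ± 15.1. Their 95% intervals were -0.16 to 0.15, -0.20 to 0.11 and -0.19 to 0.19.

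**Figure D3:**
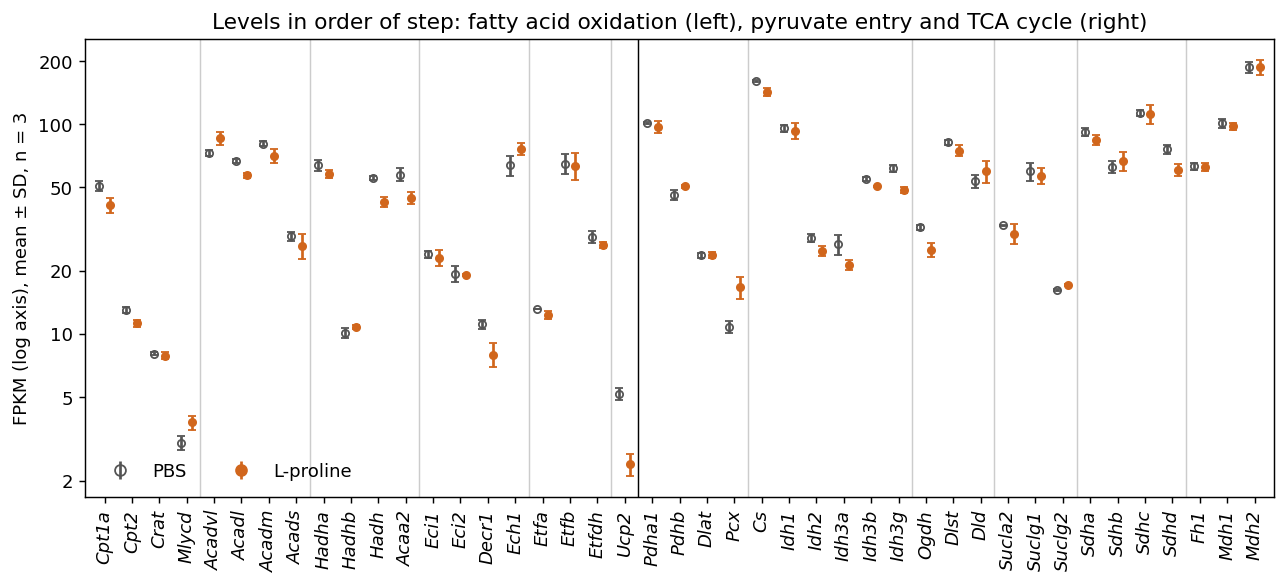
FPKM on a log axis (mean ± SD, n = 3) of the 43 genes in the order of their steps, PBS as open and L-proline as filled circles. Group means run from the low Mlycd and Ucp2 to Mdh2, and most pairs of circles lie close together compared with the range between genes.

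Levels per length spanned 3.41 (Mlycd) to 79.2 FPKM (Acadvl) in fatty acid oxidation, with a median of 27.8, and 13.8 (Pcx) to 187 FPKM (Mdh2) in the TCA cycle, with a median of 58.1. These orders depend on the length of the gene model behind each FPKM, which the values imply to be 9685 bases for Etfa against 1392 in its longest GENCODE transcript, and 5922 against 4388 for Hadhb. The mean of log2(FPKM + 1) over the 20 fatty acid oxidation genes came to 4.77 ± 0.0325 in PBS and 4.63 ± 0.0545 in L-proline, with a difference of -0.14, or -0.10 without Ucp2. Over the 23 TCA genes it was 5.82 ± 0.0425 and 5.76 ± 0.0476, a difference of -0.06. The fatty acid oxidation mean minus the TCA mean was -1.06, -1.07 and -1.03 in the PBS libraries and -1.14, -1.13 and -1.12 in the L-proline libraries. All 3 L-proline libraries were below all 3 PBS libraries, by -0.08 on average. Without Ucp2 they were also below, by -0.04 on average (-0.95, -0.95 and -0.92 in PBS and -0.99, -0.98 and -0.96 in L-proline). The TCA mean still held Pcx, the only rise (0.58), which lowers the contrast in L-proline. No contrast without both genes was computed, so it is not shown to hold without them. The difference between the 2 lists is a description, with no test.

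**Figure D4:**
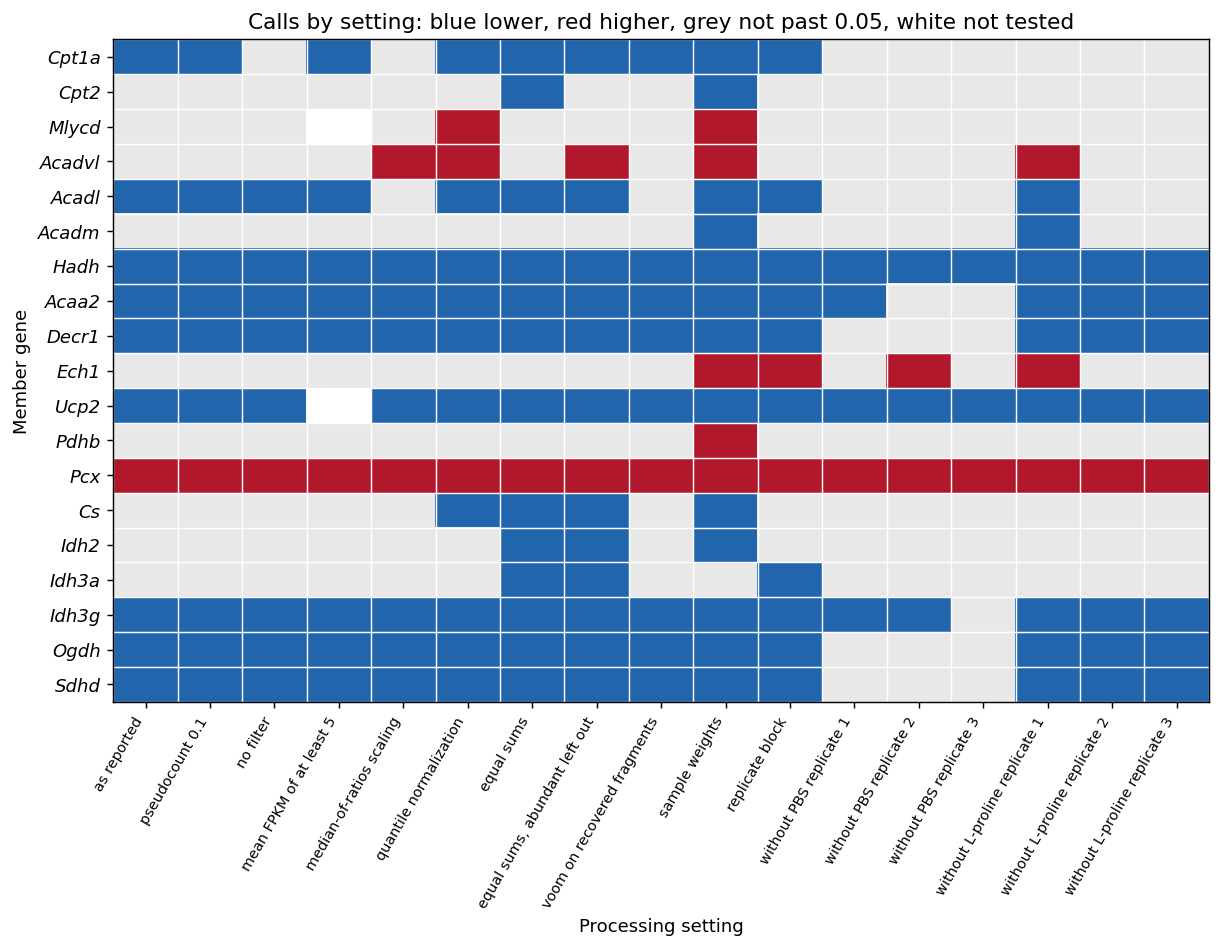
Calls for 19 genes (rows) under the reported setting and 16 alternatives (columns): blue is lower and red higher at an adjusted p under 0.05, grey did not pass and white was not tested. Hadh, Ucp2 and Pcx keep their colour wherever they were tested, while Cpt1a and Acadl lose theirs in 8 and 7 alternatives.

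Other genes of both pathways were read from lists of known function. Of 18 further genes that act in or around mitochondrial fatty acid oxidation 17 were listed and 16 tested. None passed with limma (median -0.02), where 19.6% of all tested genes passed. At an unadjusted p under 0.05, limma gave 1 higher and 1 lower, and voom gave 0 after adjustment. The carnitine-acylcarnitine carrier Slc25a20 averaged 9.54 ± 0.722 FPKM in PBS and 9.36 ± 1.84 in L-proline. Cpt1c, a brain-enriched relative of Cpt1a, was 12.5 ± 1.41 and 12.3 ± 1.05. In the peroxisomal pathway, which shortens very long and branched chains, 4 of 15 tested genes fell (12.1% of all tested genes; median -0.07). None rose with limma or voom, and 1 was higher at an unadjusted p under 0.05. Abcd2, a peroxisomal importer of very long-chain acyl-CoA, was 4.68, 3.33 and 4.05 FPKM in PBS and 2.55, 1.53 and 1.56 in L-proline (-0.81 ± 0.16, adjusted p = 0.0104). Hacl1, a lyase of the alpha-oxidation pathway, was 5.37, 5.48 and 5.08 FPKM in PBS and 3.53, 3.70 and 3.65 in L-proline (-0.45 ± 0.08, adjusted p = 0.00707). Both were without overlap and passed in all alternatives that tested them. Acox3, an acyl-CoA oxidase of the peroxisomal round, fell by 0.29 ± 0.08 on the log2 scale (adjusted p = 0.0475). It lost its call without any 1 of the 6 libraries (0.0565 to 0.168) and under 5 of the other alternatives, up to 0.217 with quantile normalization.

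No subunit gene of pyruvate dehydrogenase passed, while some of its regulators did. Of 10 carriers, kinases, phosphatases and partners tested, 3 fell and 1 rose (12.1% and 7.5% of all tested genes; median -0.10). All 3 that fell are pyruvate dehydrogenase kinases, which inactivate the complex by phosphorylation. Pdk1 was 35.6, 34.7 and 34.3 FPKM in PBS and 13.1, 17.9 and 13.8 in L-proline (-1.18 ± 0.11, adjusted p = 0.000541). Pdk3 was 6.02, 4.74 and 5.81 FPKM in PBS and 3.42, 3.46 and 2.81 in L-proline (-0.62 ± 0.11, adjusted p = 0.00765). Their groups were far apart, and both passed in all alternatives that tested them. Pdk4, which is known to respond to fatty acids, was 11.4, 10.6 and 12.6 FPKM in PBS and 9.36, 8.35 and 8.65 in L-proline. It fell (-0.35 ± 0.09, adjusted p = 0.0283), though not without PBS 1 or 3 or L-proline 2 or 3 (0.0606 to 0.135) or with quantile normalization (0.0525). Pdk2 was 7.78 ± 0.682 and 6.72 ± 0.380 FPKM and did not pass (-0.18 ± 0.09, adjusted p = 0.185). Pdpr, a regulator of the phosphatase that activates the complex, averaged 4.54 ± 0.241 FPKM in PBS and 5.96 ± 0.541 in L-proline and rose (0.33 ± 0.09, adjusted p = 0.0399), a call lost under 8 of 16 alternatives, among them without PBS 1, 2 or 3 or L-proline 1 or 2 (0.0559 to 0.150). Pdhx, which anchors Dld to the complex, was 8.95 ± 0.692 and 8.71 ± 0.968 FPKM, with overlap.

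**Figure D5:**
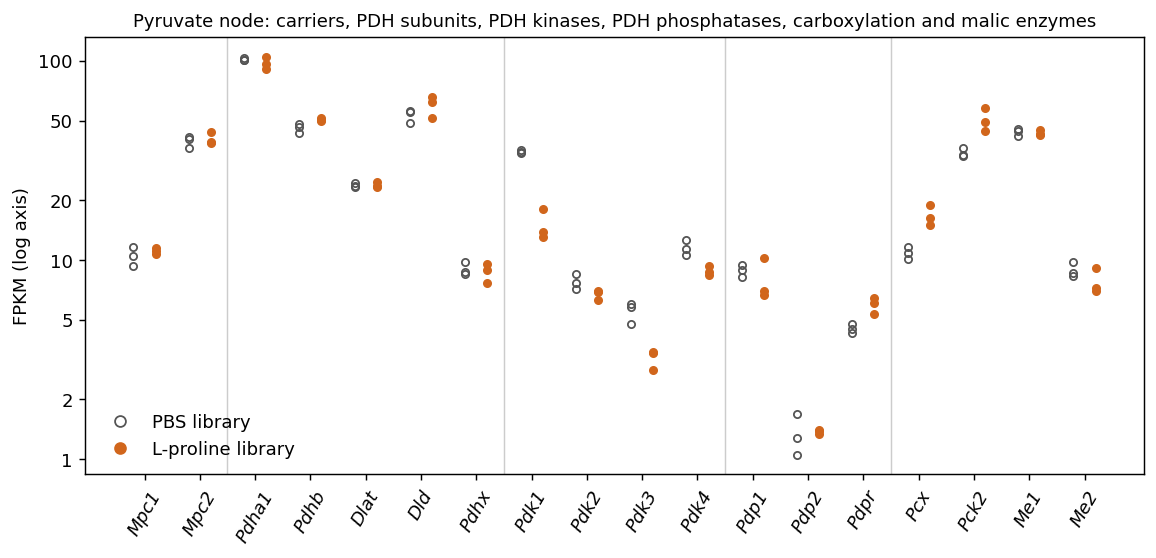
FPKM on a log axis of genes that handle pyruvate, 1 circle per library, open for PBS and filled for L-proline; PDH is pyruvate dehydrogenase. The circles of Pdk1, Pdk3 and Pcx separate widely between groups, Pdk1 at 34.3 to 35.6 against 13.1 to 17.9 FPKM, while those of Pdha1, Dlat and Pdhx overlap.

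Of the genes that feed or drain the cycle, 10 were tested and 3 rose (30%, against 7.5% of all tested genes; median -0.10). None fell with limma or voom, and 2 were lower at an unadjusted p under 0.05. Pck2, the mitochondrial enzyme that turns oxaloacetate into phosphoenolpyruvate, was 33.2, 36.3 and 33.6 FPKM in PBS and 49.3, 44.3 and 57.6 in L-proline (0.53 ± 0.10, adjusted p = 0.00963). Gpt2, the mitochondrial alanine aminotransferase, was 6.53, 6.84 and 7.15 FPKM in PBS and 9.72, 8.94 and 9.92 in L-proline (0.42 ± 0.08, adjusted p = 0.00958; 0.0514 without PBS 1). In both genes every L-proline library was above every PBS library. Gpt, the cytosolic form, rose by 0.31 ± 0.09 on the log2 scale (adjusted p = 0.0394), but lost its call without any 1 of the 6 libraries (0.0546 to 0.160), with no filter (0.0608), with equal sums (0.0591) and with voom (0.0628). Pck1, the cytosolic counterpart of Pck2, is not listed in the table used here. Among 14 further TCA genes tested, 1 rose (7.14%, against 7.5% of all tested genes), and the median was 0.01. None fell with limma or voom, where 12.1% of all tested genes fell with limma. At an unadjusted p under 0.05, limma gave 3 lower. The gene that rose was Sdhaf1, an assembly factor of succinate dehydrogenase. It went from 6.45 ± 0.242 FPKM in PBS to 8.79 ± 0.813 in L-proline (0.39 ± 0.09, adjusted p = 0.0188). This call was lost on leaving out PBS 1 (0.0714), PBS 3 (0.0960) or L-proline 2 (0.0514).

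Beside these genes, 12 nuclear genes of the mitochondrial outer membrane channel, protein import and chaperonins gave 2 rises (Hspe1 and Hspa9), 1 fall (Vdac1) and a median of -0.02. Over all tested genes 7.5% rose and 12.1% fell. The 13 mitochondrially encoded genes summed to 14092 to 15578 FPKM in PBS and 13374 to 22439 in L-proline, with L-proline 3 below every PBS library. Of these 13 genes 3 rose (ND1, ND2 and ND3), or 23.1%, against 7.5% of all tested genes. The part of these lists in the results on fatty acid oxidation and the TCA cycle was not tested.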

How the data were processed

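PolyA RNA of 6 left ventricle libraries, 3 per group, was measured by paired-end sequencing. The authors deposited FPKM values per gene, and per the submitters' processing notes the tools were HISAT2 and HTSeq 0.13.5 and the build GRCm39. All values of the 14408 genes came out as whole fragments, within a tolerance of 0.01. Each library's total was solved from 13 mitochondrially encoded genes. For each gene the shortest length that made its values whole was then taken, so whole values are no independent check of that length. From the deposited FPKM, log2(FPKM + 1) was computed, genes with a mean under 1 FPKM were left out, and the groups were compared with limma 3.58.1 (R 4.3.3, trended eBayes) with Benjamini-Hochberg adjustment over 10500 genes. On simulated data with the same library totals, 38% of genes changed by 1.25-fold, 96% by 1.5-fold and 100% by 2-fold were recovered, with 5.65% false calls. Only 50 genes per fold were changed among 10500, with 1 common spread for all genes. In the data 19.6% of genes passed and spreads differ by gene, so these rates need not hold there. The 10 ratios were tested by exact two-sided permutation. The 16 alternatives changed the pseudocount, filter, scaling, weights or block, used voom, or left out a library. All 43 genes are named, those past the threshold or without overlap by library. Of each other list up to 4 genes past the threshold are named, with Cpt1b, Slc25a20, Pdhx and Pdk1 to Pdk4. Of the genes this rule names, 2 are not reported here. Genes and lists were chosen with earlier results of these data known. Promoters are RefSeq's, on another build than the FPKM values.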

Additional observations from a re-analysis of the deposited data

How the results depend on the processing

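Over 16 alternatives, 686 fold changes of the 43 genes gave 596 with the direction and call as reported, 27 that lost and 26 that gained a call, and 37 that changed sign, in 11 uncalled genes and in 0 called ones. The cause of these changes was not tested. Leaving out a library also leaves fewer samples, and the part of that in the changed calls was not tested. Of the 10 called genes, 8 fell by between 14.4% and 28.2%. The simulation, with fewer changed genes than the data and 1 common spread, recovered 38% of 1.25-fold changes, a rate that need not hold for these genes.

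Fatty acid oxidation genes higher, 0 as reported, were 2 under quantile normalization, 1 under median-of-ratios scaling, 1 with equal sums without mitochondrial and abundant genes, 3 with sample weights and 0 to 2 leaving out a library. Lower, 6 as reported, they were 2 to 6 leaving out a library (3, 2 and 2 without PBS 1, 2 and 3). TCA genes higher, 1 as reported, were 2 with sample weights. Lower, 3 as reported, they were 6 with equal sums, 6 with equal sums without abundant genes, 5 with sample weights and 0 to 3 leaving out a library (1, 1 and 0 without PBS 1, 2 and 3). All genes were 1798 higher and 2873 lower with sample weights, and 366 to 965 higher and 508 to 1805 lower leaving out a library. The split of 788 higher and 1268 lower became 1003 and 966 under median-of-ratios scaling and 1079 and 1015 under quantile normalization, and 745 and 1293 with voom on the recovered fragments. The TCA mean difference of -0.06 was -0.00787 with median-of-ratios scaling, and fatty acid oxidation minus TCA, -0.08, was -0.0514 with quantile normalization.

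With the replicate number as a block, fatty acid oxidation gave 1 higher and 6 lower, the TCA cycle 1 and 4, all genes 908 and 1475, the other lists 1 lower for mitochondrial fatty acid oxidation, 1 lower for other TCA genes, 0 higher for pyruvate regulators, 1 lower for anaplerosis and 0 lower for channel and import genes. Same-numbered libraries correlated in their deviations at 0.651, 0.416 and -0.348, and not every library correlated best with its own number, so the numbers were not taken as pairs.

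Among the other lists, mitochondrial fatty acid oxidation had 1 higher with sample weights, no filter, quantile normalization or median-of-ratios scaling, and 1 lower with both equal-sum scalings. Peroxisomal genes had 3 higher with sample weights, and 1 lower at a mean of at least 5 FPKM, 2 under either median-of-ratios scaling or quantile normalization and 2 to 3 leaving out a library. Other TCA genes had 2 lower with no filter, 3 with equal sums, 1 without abundant genes and 0 to 1 leaving out a library, with 0 to 1 higher. Pyruvate regulators had 0 higher with equal sums or no filter, 0 to 1 leaving out a library, and 5 lower with sample weights. Anaplerosis had 1 lower with quantile normalization, 2 with both equal-sum scalings, 2 with sample weights, 0 to 1 leaving out a library, and 1 to 2 higher leaving out a library. Mitochondrially encoded genes had 5 higher with sample weights, and channel genes 0 lower with median-of-ratios scaling and 0 to 1 leaving out a library.

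Sign changes of the log2 fold change were as follows. With median-of-ratios scaling Crat was 0.0195, Eci2 0.0385, Etfb 0.0168, Idh1 0.0131, Sdhc 0.0381, Fh1 0.0458, Mdh1 0.00629, Mdh2 0.0539, Pdhx 0.0112 and Slc25a20 0.0103. With quantile normalization Crat was 0.0617, Eci2 0.0233, Sdhc 0.0227, Pdhx 0.0413 and Slc25a20 0.0366. With sample weights Crat was 0.0123, Eci1 0.00387, Etfb 0.0392, Idh1 0.0282, Suclg1 0.0366, Fh1 0.0561, Mdh1 0.0214, Mdh2 0.0598, Pdhx 0.0746 and Slc25a20 0.11. Dlat was -0.0411 with equal sums and -0.0170 with equal sums without abundant genes. Leaving out a library, Eci1 was -0.0958 to 0.0156, Eci2 -0.0792 to 0.0294, Etfb -0.118 to 0.0879, Dlat -0.0199 to 0.0239, Idh1 -0.107 to 0.0159, Suclg1 -0.118 to 0.0101, Sdhc -0.0869 to 0.0626, Fh1 -0.0351 to 0.0285, Mdh2 -0.0388 to 0.0684, Pdhx -0.101 to 0.0427 and Slc25a20 -0.139 to 0.114. The ratio Etfa/Etfb was -0.219 to 0.0398, Eci1/Eci2 -0.105 to 0.0536 and Idh3a/Idh3g -0.0241 to 0.0778.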
